A study of Mus musculus with 2 samples.

Results

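A set of 59 cells with the RNA of early liver cells was found in 1 of 2 single-cell libraries made from mouse embryonic hearts, the library labelled knockout. They were 59 of its 4800 non-erythroid cells (1.23%, 95% exact Clopper-Pearson interval 0.937 to 1.58) and 59 of the 13406 cells of both libraries. A barcode was kept as a cell at 3000 UMIs or more, 500 genes or more and at most 20% of UMIs from mitochondrial genes, and as non-erythroid with under 20% of UMIs from hemoglobin genes. A UMI (unique molecular identifier) stands for 1 captured RNA molecule. Cells were then chosen by the measured levels of Afp, Alb, Apoa1 and Ttr: these 4 genes together had to reach 50 UMIs per 10000 UMIs of the cell, with at least 3 of the 4 detected.

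The hearts were taken at E10.5, a stage given in days of embryonic development, and 4 were pooled for each library, so that each genotype is represented by 1 library. The pools were BubR1+/+ (labelled wildtype) and BubR1fl/fl (labelled knockout), and both carried Nkx2.5-cre (het), a Cre recombinase driven from the locus of a cardiac progenitor transcription factor. BubR1, encoded by Bub1b, is a protein of the spindle assembly checkpoint, and the floxed allele can be deleted only in cells in which Cre has been active. Dissected embryos were kept on ice for 3 hours before the hearts were removed, and the labels name the tissue as heart and the cells as cardiac cells.

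Hepatoblasts are the progenitors of hepatocytes and bile duct cells. They arise from foregut endoderm next to the developing heart, grow as cords into the mesenchyme of the septum transversum, and begin to secrete plasma proteins such as alpha-fetoprotein while the liver is still forming. A network of transcription factors that includes HNF4A, the FOXA proteins, PROX1, HHEX and TBX3 is known to specify these cells and to drive their genes.

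In the 59 cells the summed level of the 4 genes ran from 51.7 to 329 UMIs per 10000, with a median of 159.7. The 5 lowest stood at 51.7, 76.0, 79.6, 95.5 and 99.1. Just below the minimum lay 4 barcodes at 46.7, 42.5, 34.1 and 28.9, and the next values were 8.32 and 2.94. The median of the 4741 other non-erythroid cells was 0. All 4 genes were detected in 58 of the 59 cells, and the remaining cell lacked only Alb. The library labelled wildtype held 0 such cells among 7440 cells, of which 5239 were non-erythroid. A limit of 3 cells then allows a share of up to 0.0573% of non-erythroid cells (exact Clopper-Pearson upper bound 0.0704%), and the highest summed level there was 4.13 UMIs per 10000. With 1 library per genotype no test of this difference is possible, and genotype, dissection and library cannot be told apart. No barcode of the 59 cells recurred among the wildtype cells, while 8 barcodes were shared between the libraries over all cells.

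**Figure D1:**
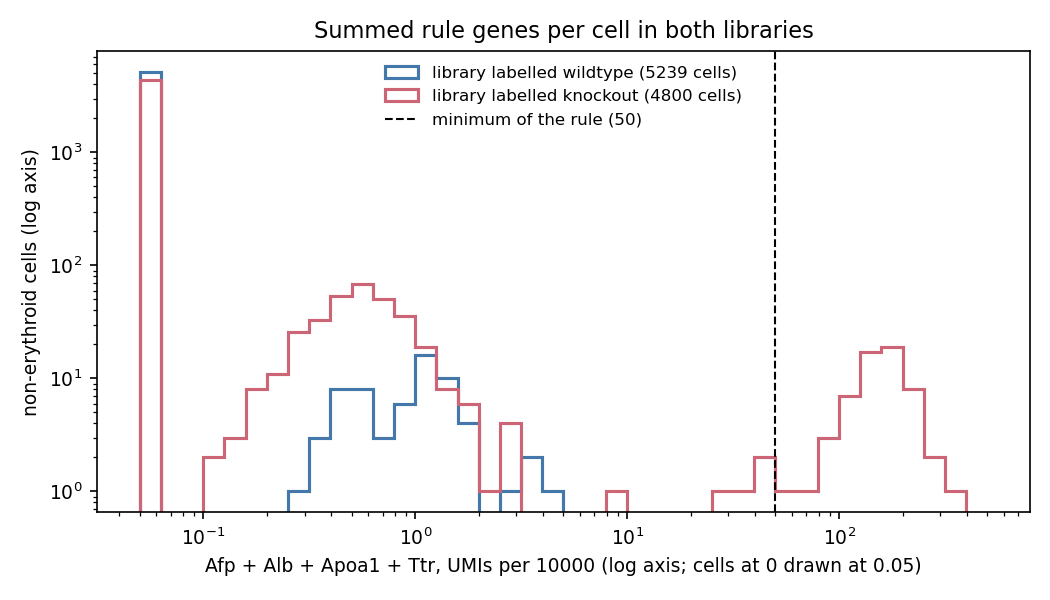
Summed Afp, Alb, Apoa1 and Ttr in UMIs per 10000 (horizontal log axis, cells at 0 drawn at 0.05) against the number of non-erythroid cells (vertical log axis) for the 2 libraries. The dashed line is the minimum of 50; the 59 cells to its right all belong to the library labelled knockout, and only 4 barcodes lie between 25 and 50.

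The cells were deeply sequenced. They held 3374 to 89960 UMIs each, with a median of 25767, against a median of 15829 in the other non-erythroid cells. Genes per cell had a median of 5784, against 4569. Mitochondrial genes took 1.20% to 13.5% of UMIs, with a median of 3.72%. The 3 shallowest cells (3374, 3955 and 4631 UMIs) also had high mitochondrial shares of 10.6%, 9.25% and 13.5%. In the wildtype library the median non-erythroid cell held 8591 UMIs. Lowering the minimum to 1000 UMIs gave 61 cells in the library labelled knockout and 0 in the other.

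Levels below are CPM, the counts of a gene per 1000000 UMIs after the UMIs of all cells of a group were summed, and their intervals cover counting error only. UMIs are read at the 3′ end of a transcript, so that levels are not scaled to gene length. The group's 1685557 UMIs were set against the 83832534 UMIs of the other 4741 non-erythroid cells. Because cells are not replicates and the 4 selecting genes shape every difference between these groups, ratios are given as descriptions, with no test. Among 7042 genes with a mean of at least 20 CPM over both groups (called measured below), 571 (8.11%) were at least 2-fold higher in the liver-type cells and 998 (14.2%) at least 2-fold lower, and the median log2 ratio was 0.03. A gene almost absent from the other cells could be measured only by being high in the liver-type cells, and the reverse. Lists of liver genes and of other cell types are therefore counted over every gene listed, with no minimum level, where genes of few UMIs have imprecise ratios. The shares of 8.11% and 14.2% apply to measured genes only, and no such share was counted over all genes without a minimum.

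Bub1b, the targeted gene, was checked in the groups. It lies at chr2:118598211-118641591 (GRCm38) and stood at 80.7 CPM (interval 67.7 to 95.4) in the liver-type cells, from 136 UMIs in 42 cells. Other non-erythroid cells of the library held 42.3 CPM, epicardial cells 45.6 and wildtype non-erythroid cells 43.4. Single liver-type cells held 0 to 2.13 UMIs per 10000, with a median of 0.59. The labels do not say which exons are floxed, and counts at the 3′ end of a transcript check no deletion outside that end. Of 12 spindle assembly checkpoint genes, 11 were measured and 0 passed 2-fold, with a median log2 ratio of 0.43 against 0.03 for all genes. Ttk was at 58.7 CPM against 35.5 and Knl1 at 84.2 against 59.2. Bub3 was at 104 against 110 and Cdc20 at 73.6 against 61.4, and none of these passed 2-fold.

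The 4 selecting genes encode the major secreted proteins of the early liver. Afp, for alpha-fetoprotein, was the highest of them at 12095 CPM (interval 11930 to 12262). Single cells ranged from 42.5 to 266 UMIs of Afp per 10000, with a median of 120. Ttr, for the thyroxine carrier transthyretin, stood at 1737 CPM and ranged from 2.11 to 50.6 UMIs per 10000. Alb, for albumin, reached 909 CPM with a range of 0 to 36.7, and Apoa1, for the main protein of high-density lipoprotein, 865 CPM with a range of 1.22 to 27.8. Afp lies at chr5:90490737-90508907 and its paralog Alb next to it at chr5:90460897-90476602 (GRCm38, plus strand), with 14134 bases between the genes. Levels of these neighbours were little related across the cells (Pearson r = -0.08, n = 59), and those of Apoa1 and Ttr more so (r = 0.58, n = 59). The cells of such correlations share 1 library, differ in depth and were chosen by a minimum on the sum of these same genes, and the second value was 0.41 over the 55 cells left after the removal of 4 cells described below.

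Free RNA in the suspension also carried these transcripts. In barcodes of 10 to 100 UMIs of the same library, which hold mostly free RNA, Afp was at 117 CPM, Ttr at 20.5, Alb at 11.4 and Apoa1 at 8.33. Other non-erythroid cells held 8.86 CPM of Afp, 1.67 of Ttr, 0.95 of Alb and 1.09 of Apoa1. Of the 1054 UMIs of the 4 genes in those 4741 cells, 683 (64.8%) came from the 4 barcodes just under the minimum. These had 7291 to 71459 UMIs and did not reach the marker minimum of a heart cell class, but 3 of them carried RNA of heart cells. Cardiomyocyte class markers stood at 65.6 and 72.2 UMIs per 10000 in a pair of them, below the minimum of 100, and epicardial markers at 9.48 in another, below the minimum of 10. Hemoglobin genes took 9.44% of the UMIs of 1 of them. Without them the sum fell from 12.6 to 4.44 CPM, and the log2 ratio of Afp to the other cells rose from 10.41 to 11.99. Ratios of liver genes given below include these barcodes among the other cells. At least 1 UMI of the 4 genes was seen in 7.07% of other cells (median 15829 UMIs) and in 6.60% of the 1166 erythroid cells (median 20662 UMIs), which should lack them, and in 1.20% of wildtype non-erythroid cells (median 8591 UMIs).

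The label of hepatoblast was checked against liver transcription factors, which were not used to choose the cells. Of 22 factors listed, 21 had a UMI in the 59 cells and 20 had at least 10. Over the whole list 17 were at least 2-fold higher than in other cells, 3 were within 2-fold, 1 was lower and 1 had 0 UMIs. Counts over whole lists, here and below, have no share over all genes beside them, because none was counted without a minimum level. Hnf4a, a nuclear receptor that controls much of the hepatocyte programme, stood at 87.2 CPM (interval 73.7 to 103) and was found in 49 of the 59 cells. In other cells it stood at 0.12 CPM, and among 1992 epicardial cells at 0 UMIs. Single cells held 0 to 2.75 UMIs of Hnf4a per 10000, with a median of 0.78. After every cell was thinned to 3000 UMIs, 23.7% of the liver-type cells (interval 13.6 to 36.6) and 0.0422% of the others still showed it.

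Prox1, which lets hepatoblasts leave the liver bud and spread, had the highest level of the listed factors at 376 CPM, in 57 cells. Other cells held 20.3 CPM and cardiomyocytes, which also use Prox1, 91.0 CPM. Onecut2, a factor of the hepatocyte nuclear factor 6 family, stood at 305 CPM against 4.26 and was also found in 57 cells. Its relative Onecut1 reached 74.8 CPM against 0.17. Nr5a2, a nuclear receptor of liver and pancreas, was at 178 CPM against 0.86, and in 53 cells.

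The pioneer factors of the FOXA family were present together. Foxa3 was at 64.7 CPM in 46 cells, Foxa2 at 44.5 CPM in 38 cells and Foxa1 at 24.9 CPM in 22 cells, while none exceeded 0.16 CPM in other cells. Tbx3, which supports growth of the liver bud, stood at 104 CPM against 6.13. Hhex, needed for the budding itself, stood at 102 CPM against 9.96. Sall4, a factor of fetal hepatoblasts, was at 78.3 CPM against 2.65 and Cebpa, which promotes the hepatocyte fate, at 35.6 CPM against 1.05.

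Several factors of later or wider use did not follow. Gata6 was at 119 CPM against 209 and Cebpb at 42.7 CPM against 51.9, both within 2-fold. Gata4 was lower, at 30.9 CPM against 342, and was detected in only 8 of the 59 cells. Most of that level came from 4 cells that carried RNA of heart cells, without which it was 6.61 CPM. Nr1h4, the bile acid receptor, had 0 UMIs in the 59 cells, which allows up to 1.78 CPM, and Nr1i3, a xenobiotic receptor, had 2 UMIs.

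**Figure D2:**
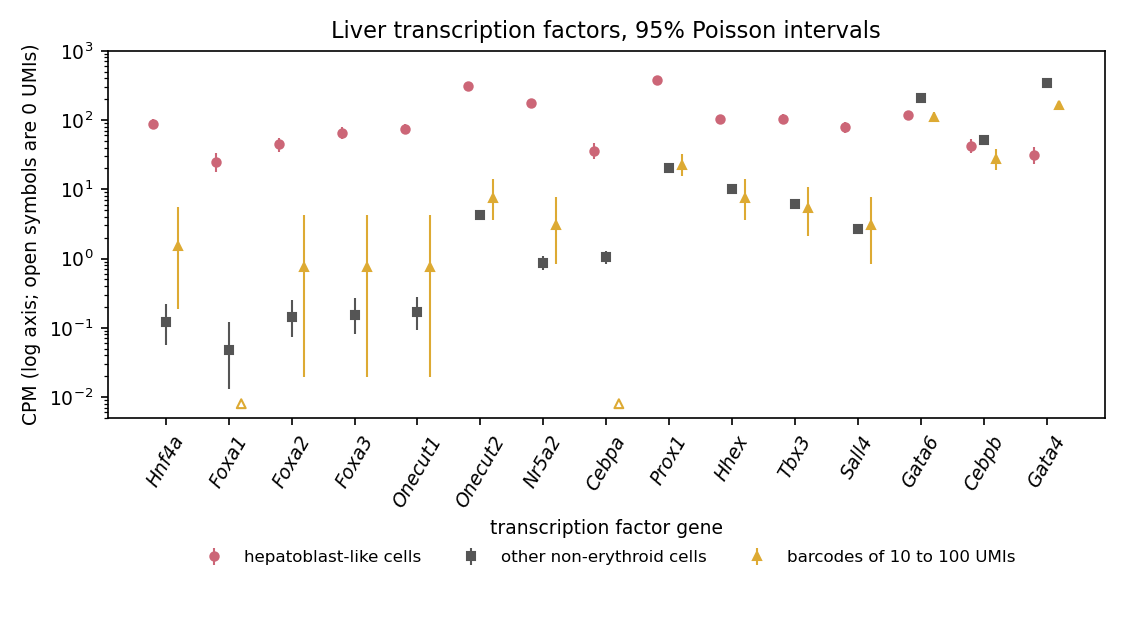
Levels of 15 liver transcription factors in CPM (log axis) in the 59 liver-type cells, the 4741 other non-erythroid cells and barcodes of 10 to 100 UMIs of the same library, with 95% Poisson intervals and open symbols for 0 UMIs. Hnf4a stands at 87.2 CPM in the liver-type cells against 0.12 in other cells, while Gata4 is lower in them at 30.9 CPM.

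Genes of secreted plasma proteins made up most of the largest differences. Beyond the 4 selecting genes, Rbp4, the plasma carrier of vitamin A, had the highest level at 4143 CPM (interval 4046 to 4241). It ranged from 10.7 to 79.7 UMIs per 10000 with a median of 41.7, so that no cell lacked it. Trf, for the iron carrier transferrin, stood at 1633 CPM against 19.3 in other cells, and Serpina6, for the carrier of corticosteroids, at 784 CPM against 0.76. Of the 15 plasma carriers and acute phase genes listed, 11 were at least 2-fold higher and the other 4 had 0 UMIs. Those at 0 were Hp (haptoglobin), Cp (ceruloplasmin), Fetub and Orm1, while Gc (vitamin D carrier) stood at 7.12 CPM and Ahsg (fetuin A) at 21.4 CPM.

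Among 16 apolipoprotein and lipid transport genes, 13 were at least 2-fold higher, 1 was lower and 2 had 0 UMIs. Apoa2, a further protein of high-density lipoprotein, reached 3169 CPM against 4.34, and ranged from 5.67 to 61.5 UMIs per 10000. Apoe stood at 1900 CPM against 239, and in the heart cells it stood at 1599 CPM in macrophages and 1042 in endothelial cells. Apom, a carrier of sphingosine phosphate, stood at 960 CPM against 0.93, and Apob, the core protein of very-low-density lipoprotein, at 323 CPM against 0.62. Apoa4 and Apoa5 had 0 UMIs and Apoc3, abundant in adult liver, only 10 UMIs.

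Of 18 clotting genes, 14 had at least 10 UMIs, 15 were at least 2-fold higher, 1 was within 2-fold and 2 had 0 UMIs. The 3 chains of fibrinogen were found together, Fgb at 874 CPM (0.89 to 21.3 UMIs per 10000), Fgg at 357 CPM and Fga at 195 CPM, against 0.50, 0.33 and 0.16 CPM in other cells. Serpind1, for heparin cofactor II, stood at 193 CPM and Plg, for plasminogen, at 191 CPM. F2, for prothrombin, stood at 86.6 CPM and F10 at 126 CPM, while F9 and F13b had 0 UMIs. Of 16 protease inhibitor genes, 14 were at least 2-fold higher and 1 had 0 UMIs. Serpina1b and Serpina1a, for alpha-1 antitrypsin, stood at 585 and 359 CPM, Itih2 at 563 and Serpinf2, the plasmin inhibitor, at 560. The genes Serpina1a to Serpina1e are near-identical copies, so that the split of reads among them is uncertain. Complement genes had low levels. Of 18, 12 were at least 2-fold higher, 1 was lower and 5 had 0 UMIs, with the highest levels for Cfi at 72.4, C3 at 71.8 and C8a at 63.5 CPM.

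By the rule used to name genes at both ends of the comparison, the 15 largest ratios belonged to Serpina1e, C8a, Shbg, Vtn, Fgb, Fga, Fgg, Lect2, Apom, Serpina6, Serpina1b, Habp2, Plg, Ambp and Spp2. All 15 encode secreted proteins, and their log2 ratios ran from 9.86 to 11.78. The first 3 rest on 2 UMIs each in the other cells, so their ratios are imprecise: that of Serpina1e, 11.78, has an interval from 9.90 to 14.84, and that of C8a, 11.38, from 9.49 to 14.44. Fgb had a ratio of 10.77 (10.33 to 11.25), from 1473 UMIs in the liver-type cells and 42 in the others, but the value was 12.71 with a marker minimum of 25 UMIs per 10000 and 8.71 with 100. The order of these genes therefore depends on the marker minimum: at 25 Vtn stood at 13.02, above Serpina1e at 11.62 and C8a at 10.66. At the other end stood genes of cardiomyocytes and endothelium, with Actn2 at -7.15, Emcn at -7.07, Nav3 at -6.99, Rbm20 at -6.84 and Myocd at -6.75. Pf4, a platelet gene, was at -6.75, Gpm6a at -6.62, Myh6 at -6.12, Fli1 at -6.05 and Slc8a1 at -5.94. The first 5 and Gpm6a rest on 1 UMI each in the liver-type cells, and the interval of Actn2 ran from -12.45 to -4.67. With the marker minimum at 25, which adds the 4 barcodes, Actn2 was at -1.98, Rbm20 at -2.24, Myocd at -2.51 and Slc8a1 at -2.05.

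**Figure D3:**
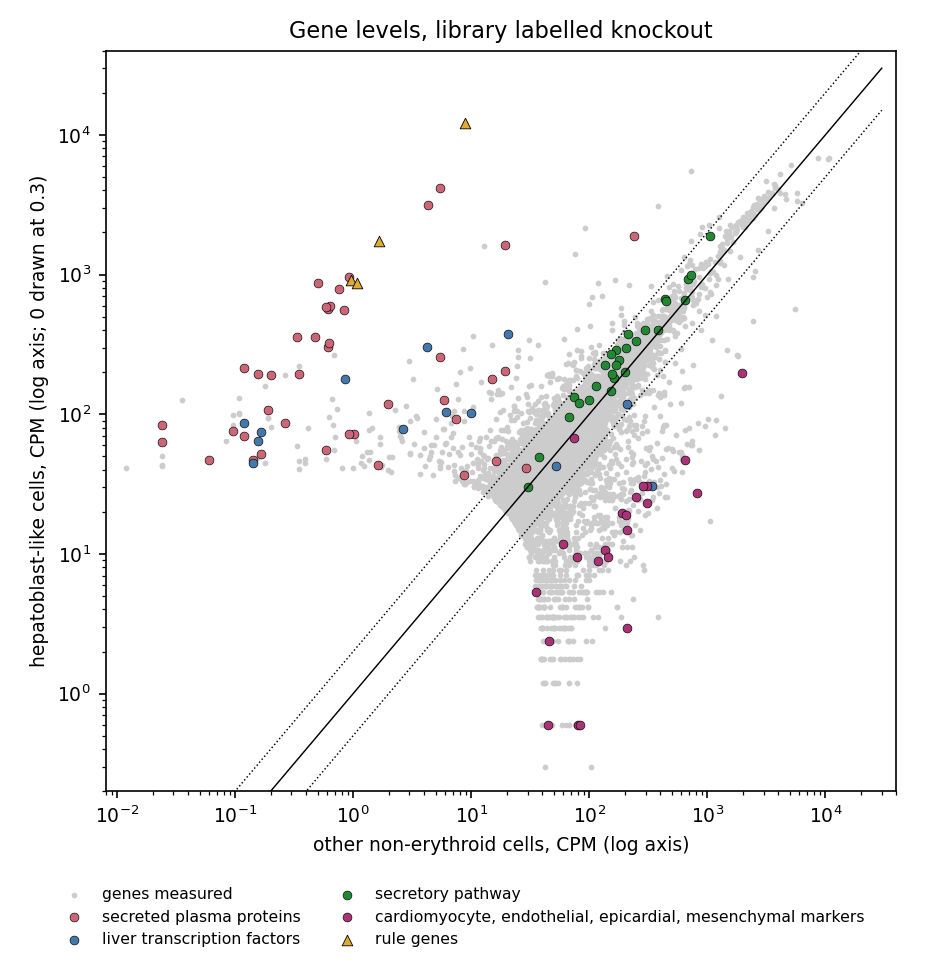
Each point is 1 of 7042 measured genes, with its CPM in the 4741 other non-erythroid cells (horizontal log axis) and in the 59 liver-type cells (vertical log axis, 0 drawn at 0.3); the solid line marks equal levels and the dotted lines a 2-fold difference. Secreted plasma protein genes lie far above the lines, secretory pathway genes stay between them, and markers of heart cells lie mostly below. The empty lower left corner comes from the minimum of 20 CPM.

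Because these secreted genes stood out together, their start sites were searched for 3 short motifs of liver factors, on either strand, in the RefSeq promoter windows (GRCm38.p6), each with 250 bases before and 50 after a start site. RefSeq had a window for 68 of the 87 secreted genes listed, 80 windows in all. The FOXA core TGTTTAC occurred in 8 of them (10%), in 2.79% of the windows of measured genes and in 3.65% of all 32851 windows. The C/EBP motif TTGCNNCAA occurred in 2.5% of the secreted genes' windows and 2.08% of all windows, and the HNF4 core CAAAGTCC in 0% and 1.42%. A gene can have several windows that overlap, and a match is a description of letters. The windows of Afp, Alb and Apoa1 held none of the 3 motifs. The HNF1 half-site GTTAAT, planned as a further motif, was not searched, and its letters do occur in the windows of Afp and Alb. Its share over other windows was not counted. Apoa2 and Rbp4, the highest secreted genes beyond those 4, each had the FOXA core in a window, 77 and 241 bases before the start site. The 150 bases before that start site of Apoa2 are shown as an example, read 5′ to 3′ on the gene's strand with the FOXA core in capitals.
Apoa2: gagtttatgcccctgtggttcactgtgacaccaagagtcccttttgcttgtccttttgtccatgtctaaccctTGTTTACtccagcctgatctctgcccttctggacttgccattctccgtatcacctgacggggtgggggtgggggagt
This stretch lies at chr1:171224904-171225053 (plus strand), and the other window of Apoa2 held none of the motifs.

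The machinery that moves proteins into and through the endoplasmic reticulum was higher as a set than in other cells, by less than 2-fold. Of 28 secretory pathway genes, 27 were measured and 0 passed 2-fold in either direction. Their median log2 ratio was 0.44, against 0.03 for all measured genes. The 28 genes summed to 10310.5 CPM, against 7315.38 CPM in other cells. Relative to a cell's UMIs, their sum in every liver-type cell was above that of the median other cell. Hsp90b1, an endoplasmic reticulum chaperone, had the highest level at 1874 CPM against 1047, followed by Calr at 993 against 722 and Hspa5 at 934 against 686. The exception below the level to be measured was Creb3l3, a liver-enriched transcription factor bound to this membrane, at 34.4 CPM against 0.82.

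Metabolic genes of the mature liver were present in part. Of 19 amino acid and urea cycle genes, 14 were at least 2-fold higher, 1 was lower and 3 had 0 UMIs. The highest levels were those of Ass1 at 73.0 CPM, Asl at 64.7, Aass at 64.7 and Bhmt at 44.5, against 6.94, 11.6, 1.05 and 0.18. Otc, a urea cycle enzyme of mitochondria, stood at 39.2 CPM against 0.06. Cps1, the entry enzyme of the urea cycle, and Tat and Mat1a had 0 UMIs. Of the glucose-making enzymes, G6pc, Pck1 and Fbp1 had 0 UMIs, which allows up to 1.78 CPM each. Pck2 and Pcx were detected, at 14.5 and 12.6 CPM without the 4 cells that carried heart RNA. Slc2a2, the glucose transporter of hepatocytes, stood at 38.0 CPM against 0.25. Of the 12 carbohydrate genes listed, 6 were at least 2-fold higher and 3 were within 2-fold, among them Pygl at 29.1 CPM and Khk at 26.1 CPM. Of 16 bile acid and xenobiotic genes 4 were at least 2-fold higher, Abcc2 having the most at 11.9 CPM, and Aldh1a1 was lower at 1.19 CPM against 53.9. In all, 9 had 0 UMIs, among them Cyp2e1, Cyp3a11 and Cyp8b1, and Cyp7a1, the rate-limiting enzyme of bile acid synthesis, had 2 UMIs.

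Lipid metabolism was represented by both synthesis and oxidation genes. Of 16 cholesterol and fatty acid synthesis genes, 10 were at least 2-fold higher, 5 were within 2-fold and 1 was lower. Scd2, a fatty acid desaturase, was at 311 CPM against 121, Acaca at 131 against 54.3 and Fdps at 119 against 70.6, the last within 2-fold. Of 14 fatty acid oxidation and ketogenesis genes, 4 were at least 2-fold higher, 9 were within 2-fold and 1 was lower. Near the limit lay Acadm at 131 CPM against 65.1, a log2 ratio of 1.00 that falls to 0.90 when 10 CPM are added. Acaa2 was at 167 CPM against 95.6 and Hadha at 126 against 93.5.

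Iron and blood-related genes were mixed. The ferritin chains Fth1 (2166 CPM against 1251) and Ftl1 (1470 against 1545) were within 2-fold, and Tfrc, the transferrin receptor, was higher at 97.9 against 40.4. Hamp, for the hormone hepcidin, and Hjv had 0 UMIs, while Tmprss6, a liver protease that controls hepcidin, stood at 26.1 CPM against 0.14. Kitl, for stem cell factor, was higher at 282 CPM against 85.1 and Cxcl12 at 35.0 against 7.67. Igf2 was at 285 CPM against 437, within 2-fold, and Igf1 at 7.71 against 88.2. Epo and Thpo, hormones of red cell and platelet formation, each had 11 UMIs.

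Of 20 growth factor and cytokine receptor genes, 6 were at least 2-fold higher, 11 were within 2-fold and 3 were lower. Met, the receptor of hepatocyte growth factor, stood at 59.9 CPM against 4.85. Lifr, a receptor of the interleukin 6 family, stood at 99.7 against 35.5. Klb, the co-receptor of endocrine fibroblast growth factors, stood at 46.3 against 0.35, and its partner Fgfr4 at 32.6 against 0.33, below the level to be measured. The lower genes were Egfr (11.3 against 67.7), Igf1r (83.1 against 445) and Fgfr1 (13.6 against 27.5). The highest receptor levels, Igf2r at 307 and Ghr at 266 CPM, were within 2-fold of other cells, as was Bmpr1a at 106. Without the 4 cells that carried heart RNA, Egfr fell to 2.65 CPM and Igf1r to 57.5.

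Genes of hepatoblast and epithelial identity were checked next. Of 14, 8 were at least 2-fold higher, 6 were within 2-fold and 0 were lower. Gpc3, a surface proteoglycan of fetal liver, stood at 2180 CPM against 908. Dlk1, a surface protein used to isolate hepatoblasts, stood at 2152 CPM against 92.2 and ranged from 5.06 to 35.3 UMIs per 10000, so that every cell held it. H19, an imprinted fetal transcript, was at 1163 CPM against 1390. Lgr5, a receptor of R-spondins, was at 110 CPM against 0.73, in 43 cells. The epithelial adhesion genes Epcam and Cdh1 were low, at 25.5 and 19.6 CPM, and each was seen in 18 cells, while other cells held 1.78 and 0.74 CPM. None of the 59 cells met the rule for an epithelial cell, which 6 other cells did.

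Genes of bile duct, other endoderm and the septum transversum were checked as well, and many were low or absent. Of 10 bile duct genes, 1 was at least 2-fold higher. At least 2-fold lower were 5, among them Sox9, Sox4, Krt7 and Krt19, at 33.8, 32.0, 8.90 and 5.93 CPM. Without the 4 cells that carried heart RNA these stood at 17.9, 12.6, 1.32 and 1.98 CPM. Hes1 (78.3 CPM) and Notch2 (49.8 CPM), genes of Notch signalling, were within 2-fold, and Spp1 and Cftr had 0 UMIs. Of 13 markers of pancreas, thyroid, lung, intestine and pharynx, 12 had 0 UMIs and the last, Cdx2, had 1 UMI. Visceral endoderm of the yolk sac also makes alpha-fetoprotein and apolipoproteins, and its own markers were nearly absent: Amn had 3 UMIs, Cubn 3, Lrp2 2 and Rhox5 4, in the summed 1685557 UMIs. Cited1, which the list also holds, was the exception at 339 CPM against 30.7 and was found in 56 cells. Of 10 septum transversum and stellate genes, 4 were at least 2-fold lower, among them Hand2 (3.56 CPM) and Des (10.1 CPM), and Alcam stood at 168 CPM against 172. Hand2 and Des fell to 0.66 and 3.97 CPM without the 4 cells that carried heart RNA. Reln, which encodes the secreted protein reelin, stood out from the same list at 1612 CPM against 12.8, in 57 cells and with up to 31.4 UMIs per 10000. Free RNA of the library held 48.5 CPM of Reln.

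Markers of heart cells were low or absent. All 8 cardiomyocyte, all 6 epicardial and all 6 mesenchymal markers were at least 2-fold lower. The epicardial genes Tbx18 and Upk3b stood at 30.9 and 23.1 CPM against 310 and 309. Of 6 endothelial markers 4 were lower, with Cdh5, Kdr and Emcn at 1 UMI each and Tie1 at 0, while Egfl7 stood at 67.0 CPM against 74.0. Of the macrophage markers C1qa, C1qb and Ptprc had 0 UMIs, and the platelet gene Pf4 had 6 UMIs. Of 6 neural markers, 4 had 0 UMIs. Globin transcripts were few in the typical cell of both groups. The summed log2 ratio of Hbb-y was -2.37. The median cell of the liver type had 0.103% hemoglobin and the median other cell 0.102%, and with a limit of 5% hemoglobin per cell the ratio was -0.26.

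What remained of heart RNA lay in a few cells. Markers of cardiomyocytes, epicardium and mesenchyme summed to 5 or more UMIs per 10000 in 4 of the 59 cells, while the other 55 had a median of 0.43 and a highest value of 4.63, against a median of 35.0 in other non-erythroid cells. In the cell lowest by the selecting genes, which was also the deepest at 89960 UMIs, epicardial markers reached 14.2 and cardiomyocyte markers 13.2 UMIs per 10000, and this cell met the marker rule of epicardial cells. Another cell, of 30367 UMIs, held 104 UMIs per 10000 of cardiomyocyte markers. The other two, of 19993 and 33054 UMIs, held summed values of 19.5 and 20.3. Doublet scoring removed 3 of the 59 cells, of which 2 were among these 4, and the values without the 4 cells follow. Without the 4 cells Myl7, a myosin light chain of heart muscle, fell from 199 to 14.5 CPM, Tnnt2 from 46.9 to 5.29 and the epicardial factor Wt1 from 19.6 to 0.66. Hnf4a moved little, from a log2 ratio of 9.51 to 9.59.

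**Figure D4:**
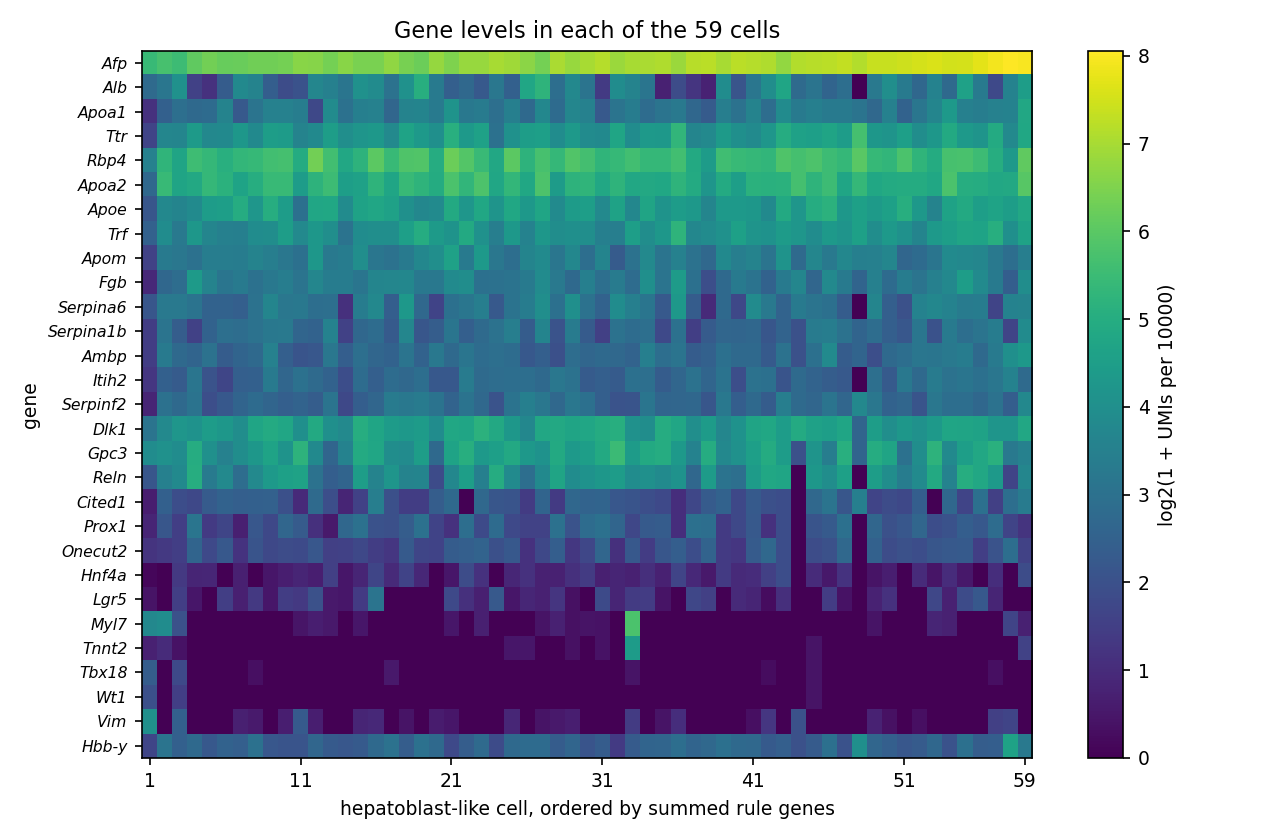
Levels of 29 genes as log2(1 + UMIs per 10000) in each of the 59 cells, ordered from the lowest to the highest sum of Afp, Alb, Apoa1 and Ttr. Rbp4, Apoa2 and Dlk1 appear in every column, Myl7 is bright in a few columns only, and columns 44 and 48, the cells of 3374 and 3955 UMIs, lack Hnf4a and Prox1.

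The most variable genes across the 59 cells were mainly of this kind. Among 2353 genes with a mean of at least 2 UMIs per cell, the variance of the counts divided by the variance that counting alone gives had a median of 1.29. The value was highest for Myl7 at 86.0, Myl4 at 81.6 and Tmsb4x at 62.3. Robo2, at 56.3, was found in only 4 cells and reached 23.1 UMIs per 10000 in 1 cell, which was not among the 4 above but was the other cell removed by doublet scoring. Across cells Trf had the highest correlation with the sum of the 4 selecting genes (Pearson r = 0.54, n = 59), followed by Apoe and Ambp (both 0.44), Pde3b (0.43) and Psme1 (0.42), among 3300 genes. Nfib was the lowest at -0.52, with Erbb4 at -0.51 and Arhgap6 at -0.49. Over the 55 cells with under 5 UMIs per 10000 of heart markers, Ambp stood at 0.43, Trf and Psme1 at 0.39, Pde3b at 0.37, Apoe at 0.16 and Nfib at -0.43, while Erbb4 and Arhgap6 dropped to -0.08 and -0.04, so that the last pair rests on the 4 cells.

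Cell cycle genes were then examined. Of 30 genes of G2/M phase, all 30 were measured and 0 passed 2-fold, with a median log2 ratio of 0.28. Their sum per cell had a median of 54.3 UMIs per 10000 and a range of 6.23 to 94.8, while the median other cell held 25.4. Hmgb2 stood at 1055 CPM against 1069, Top2a at 587 against 461 and Ube2c at 395 against 264. Of 26 S phase genes, 25 were measured, 1 was lower and 0 were higher, with a median log2 ratio of -0.20. Mcm7 stood at 162 CPM against 129, Hells at 130.5 against 129.6 and Pcna at 126 against 162. Their sum had a median of 15.8 UMIs per 10000, against 16.6. Across the 59 cells the S and G2/M sums ran in opposite directions (Pearson r = -0.73, n = 59, and -0.73 over those 55 cells). Over the 4741 other cells r was -0.01, and the points within each group share 1 library and differ in depth. The sum of 17 targets of p53 had a median of 3.29 UMIs per 10000 per cell, against 3.41 in other cells. Counted with no minimum level, and so with no share over all genes, 8 of these targets were at least 2-fold lower, 8 were within 2-fold and 1 was higher. Of the 5 measured, 2 were lower and 3 within 2-fold. Their median log2 ratio was -0.11, against 0.03 for all measured genes. Bax stood at 181 CPM against 146 and Mdm2 at 50.4 against 38.0. Cdkn1a stood at 8.31 CPM against 15.2 and Gdf15 at 21.4 against 0.38.

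**Figure D5:**
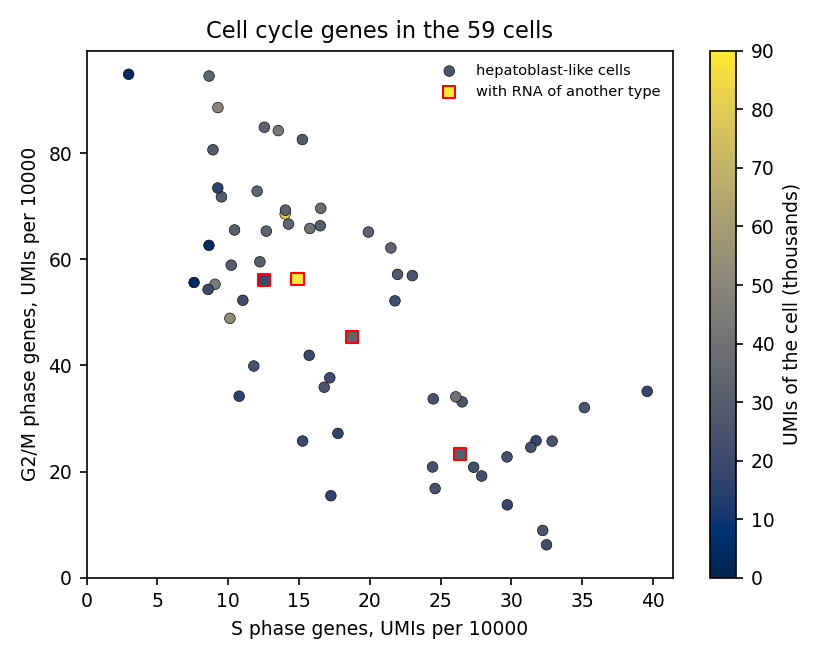
Summed S phase genes (horizontal) and G2/M phase genes (vertical) in UMIs per 10000 for the 59 cells, coloured by the cell's UMIs (colour scale in units of 1000); red outlines mark the 4 cells with RNA of heart cells. Cells high in one sum tend to be low in the other (r = -0.73), and the correlation with a cell's UMIs was -0.11 for the S sum and 0.27 for the G2/M sum.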

How the data were processed

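Single-cell RNA was measured with 10x Genomics droplets in 2 libraries, and the values deposited are raw UMI counts for each gene in each barcode. Per the submitters' processing notes, the tool was Cell Ranger 7.1.0 and the genome build mm10. The matrices held 130039314 UMIs in 1632950 barcodes for the library labelled knockout and 122834180 in 1451246 for the one labelled wildtype, empty droplets included. The counts were filtered, summed per group and scaled to CPM with Python 3.11.15, numpy 2.4.6, scipy 1.17.1 and pandas 2.3.3, and doublets were scored with Scrublet in scanpy 1.11.5 as an alternative only, so that no doublet was removed from the main values. Levels have exact Poisson, shares exact Clopper-Pearson and ratios exact conditional binomial intervals at 95%. PCR and sampling of cells are outside these intervals. A gene with 0 UMIs was bounded at 3 UMIs. Gene positions come from GENCODE vM21 and promoter windows from RefSeq. The calculation of ratios was tested on simulated counts with counting error only, and with changes set only in genes well expressed in the other cells. That test does not cover variation among cells or genes near 0 in the other cells.

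With 1 library per genotype and no member in the wildtype library, no statistical test was made. The members and gene lists were chosen with earlier results of these data known. Genes were named by a rule: the selecting genes, Bub1b, the 15 highest and 10 lowest ratios among genes of at least 50 CPM in either group (without mitochondrial, ribosomal, hemoglobin, sex-linked marker and unnamed genes), the 3 highest levels in each list, markers at or near 0, and the 5 highest and 3 lowest correlations with the selecting genes. Other genes are named for their role and were chosen after their values were seen. So were the removal of cells with RNA of another type, the removal of the 4 barcodes under the minimum, the promoter printed and the genes given under the other observations. Not every gene that the rule selects is reported here. In all 15 alternatives were planned and 2 were added.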

Additional observations from a re-analysis of the deposited data

Results flagged for a closer look

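Afp was present in barcodes that hold too few UMIs to be cells. In barcodes of 10 to 100 UMIs, which enter no comparison of levels above other than as background, the library labelled knockout held 154 UMIs of Afp among 1319882, or 116.677 CPM (95% exact Poisson interval 98.98 to 136.6). The library labelled wildtype held 0 among 417550 UMIs, which allows up to 7.18 CPM. The value is therefore above the limit in the wildtype library, and with 1 library per genotype no test of the difference is possible.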

How the results depend on the processing

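The number of liver-type cells ran from 53 to 63 over the settings that change it, and the wildtype library held 0 in the 8 settings of the cell rule tried there. Of 571 genes at least 2-fold higher, the count was 875 after thinning of every cell to 3000 UMIs, 1082 with a mean of 5 CPM and 266 with a mean of 50 CPM. The 998 lower genes became 2045 and 465 with those means, where more or fewer genes enter, and the cause of the change under thinning was not tested. No value past 2-fold changed sign. Of 439 list medians, 343 stayed between the median lower and the median upper counting limit of their genes, and 96 moved. Those limits describe a typical gene of the list and are not an interval of its median. Of 1621 values of named genes, 1277 stayed within the gene's own counting interval and 344 moved. Of 1433 values past 2-fold, 31 fell under it, among them Acaca (0.92 when thinned). Depth bounds a gene at 0 UMIs to 1.78 CPM. No paired analysis was possible because each genotype has 1 library.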

Other observations

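The liver-type cells also differed in genes that none of the lists hold. In all, 103 measured genes outside the lists were 8-fold or more higher than in the other non-erythroid cells. Mitochondrial, ribosomal protein and unnamed genes were left out of this count, and the total of measured genes outside the lists was not counted. The genes given here were chosen after their values were seen. Several are metabolic enzymes. Glud1, for glutamate dehydrogenase, stood at 1403 CPM against 75.9 and was found in all 59 cells. Gulo, for the last enzyme of vitamin C synthesis in mice, stood at 222 CPM against 0.35, in 56 cells. Gstm1, a glutathione transferase, was at 292 CPM against 8.53. Lpl, for lipoprotein lipase, was at 313 against 36.7. A1cf, a cofactor of the editing of Apob RNA, stood at 190 CPM against 0.26, and Onecut3, a relative of Onecut1 and Onecut2, at 84.2 against 0.10.

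Imprinted genes were uneven. Of the cluster that holds Dlk1, Meg3 was the highest at 3101 CPM against 386 and was found in 56 of the 59 cells, Rian stood at 870 against 118, Mirg at 150 against 16.8 and Rtl1 at 57.0 against 4.02, while Dio3 had 0 UMIs. Rtl1 is read from the strand opposite to a noncoding RNA. Of imprinted genes elsewhere, Cdkn1c stood at 967 CPM against 2448 and Peg3 at 505 against 1181, while Peg10 stood at 135 against 53.2. These values rest on 1 library.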
